A study of Mus musculus with 6 samples.

Results

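Heavy chain variable segments of mouse antibodies (genes whose symbols begin Ighv) were followed in RNA sequencing libraries of splenic CD8+ T cells. The members were the rows of the deposited table with such a symbol and a mean over the 6 libraries of at least 10 normalised counts, which left 75 of 118 Ighv rows in a table of 26181 genes. All 75 are annotated as functional V genes, and the 15 pseudogenes among the 118 rows fell under the minimum. The libraries came from wild-type (WT) C57BL/6 mice, 6 weeks old at the start, that received for 7 weeks either the diet labelled ND or CDAHFD, a high-fat diet without choline and with defined amino acids that is used to model steatohepatitis. Each diet had 3 libraries, of 25314988 to 28067393 reads assigned to genes. The labels do not say whether the libraries came from separate animals, so a p-value here covers only the variation among these samples, part or all of which may be technical. They also do not say how the CD8+ cells were isolated or how pure they were.

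A heavy chain gene is assembled in each developing B cell by joining 1 V segment to a D and a J segment, and the joined exon is transcribed with a constant region gene that sets the antibody class. T cells do not normally complete V to DJ joining at this locus, so heavy chain V transcripts are usually read as products of B cells and above all of plasma cells, which hold very large amounts of antibody RNA. The segments are sorted by sequence into numbered families, of which Ighv1, also called J558, is the largest in this strain. All 75 members lie on the minus strand of chromosome 12 in mm10, between 158 and 2570.2 kb from the J segment Ighj1.

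The V exons of 4 segments are printed, chosen after their values were seen. Ighv1-26 took the largest share of counts in CDAHFD libraries, and Ighv4-1 gained the most in share. Ighv11-2 and Ighv12-3 had the lowest log2 fold changes and are known from B-1 cells, innate-like B cells, for antibodies that bind phosphatidylcholine. Each line gives the last 300 bases of the V exon in GENCODE mouse release M21, 5′ to 3′ on the coding strand (chromosome 12, minus strand, mm10). Capitals mark the codon of the conserved cysteine near the 3′ end and the bases after it, where the variable loop called CDR3 begins.
Ighv1-26, chr12:114788372-114788671: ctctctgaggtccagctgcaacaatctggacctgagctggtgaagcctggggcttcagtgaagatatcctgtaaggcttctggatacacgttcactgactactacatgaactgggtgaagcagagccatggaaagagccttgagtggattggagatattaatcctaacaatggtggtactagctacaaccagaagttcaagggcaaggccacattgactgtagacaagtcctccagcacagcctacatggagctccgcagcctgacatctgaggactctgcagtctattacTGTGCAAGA
Ighv4-1, chr12:113948282-113948581: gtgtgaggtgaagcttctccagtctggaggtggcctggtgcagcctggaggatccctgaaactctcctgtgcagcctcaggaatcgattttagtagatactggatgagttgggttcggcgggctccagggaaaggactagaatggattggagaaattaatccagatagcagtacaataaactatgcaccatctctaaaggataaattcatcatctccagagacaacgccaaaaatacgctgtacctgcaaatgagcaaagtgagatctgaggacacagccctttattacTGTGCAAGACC
Ighv11-2, chr12:114048241-114048540: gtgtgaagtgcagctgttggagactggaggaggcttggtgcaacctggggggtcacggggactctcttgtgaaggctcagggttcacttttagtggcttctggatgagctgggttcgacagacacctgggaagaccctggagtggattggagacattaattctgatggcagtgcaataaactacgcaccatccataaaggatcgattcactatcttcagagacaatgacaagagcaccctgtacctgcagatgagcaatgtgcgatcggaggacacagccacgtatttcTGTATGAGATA
Ighv12-3, chr12:114366521-114366820: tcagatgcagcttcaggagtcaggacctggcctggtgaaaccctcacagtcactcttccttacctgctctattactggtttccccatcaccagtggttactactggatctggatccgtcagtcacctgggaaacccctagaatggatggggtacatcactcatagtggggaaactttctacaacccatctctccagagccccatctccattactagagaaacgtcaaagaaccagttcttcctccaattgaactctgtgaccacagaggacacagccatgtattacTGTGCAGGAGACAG
Over the whole exon, Ighv4-1 and Ighv11-2 were 76.5% identical, and Ighv1-26 and Ighv4-1 64.3%. How well reads can be assigned differs between these segments. Ighv4-1 was 76.8% identical to its nearest relative, Ighv5-17, and none of the 50-base windows of its exon was found in another of 115 V exons compared. Ighv12-3, nearest to Ighv3-6 at 78.7%, also had unique windows only. Ighv1-26 was 97.4% identical to Ighv1-18, with 57.8% of its windows unique. Ighv11-2 was 98.7% identical to Ighv11-1, with 51.2% unique, and Ighv11-1 itself had 0, 0 and 0 reads in ND and 2, 1 and 2 in CDAHFD libraries. Over the 75 members, the identity to the nearest relative had a median of 95.4%, and 44 were at least 95% identical to another segment. The authors' counting could split reads between such copies, so single values within close pairs are uncertain.

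Summed over the members, heavy chain V counts were 2.44-fold higher in CDAHFD libraries. The sum was 2973, 2943 and 2877 normalised counts in ND replicates 1 to 3 and 7697, 6807 and 6985 in CDAHFD replicates 1 to 3. The diets lay far apart, with means of 2931 ± 48.9 and 7163 ± 471 (SD, n = 3 each). These sums rest on 2852 to 3052 reads per ND library and 7187 to 7280 per CDAHFD library. In bulk RNA, more or fewer cells of a type and more or less RNA per cell cannot be told apart.

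Most members rose. By limma at an adjusted p under 0.05, 55 of 75 were higher in CDAHFD libraries, against 24.6% of all 15819 genes tested, and 1 was lower, against 22.5% of all genes. The median log2 fold change of the members was 1.11, and that of all genes tested -0.01. By edgeR's quasi-likelihood test on whole reads, 56 members were higher (24.7% of all genes) and 2 lower (22.9%), and by DESeq2 52 (23.1%) and 1 (19.6%). All CDAHFD values lay above all ND values for 57 members (27.8% of all genes tested) and below them for 1, Ighv11-2 (26.5%). The log2 fold changes of the members had a lower quartile of 0.69 and an upper quartile of 1.76. They were taken after adding 1 to each normalised count, a scale on which low genes show too small a change. The minimum of 10 favours members that are high in 1 diet: 10 members had an ND mean under 10, and 7 of those were called higher, so these counts are a description. With every gene of the table tested, 60 of 118 Ighv rows were called higher (16.2% of all genes) and 1 lower (13.6%).

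**Figure D1:**
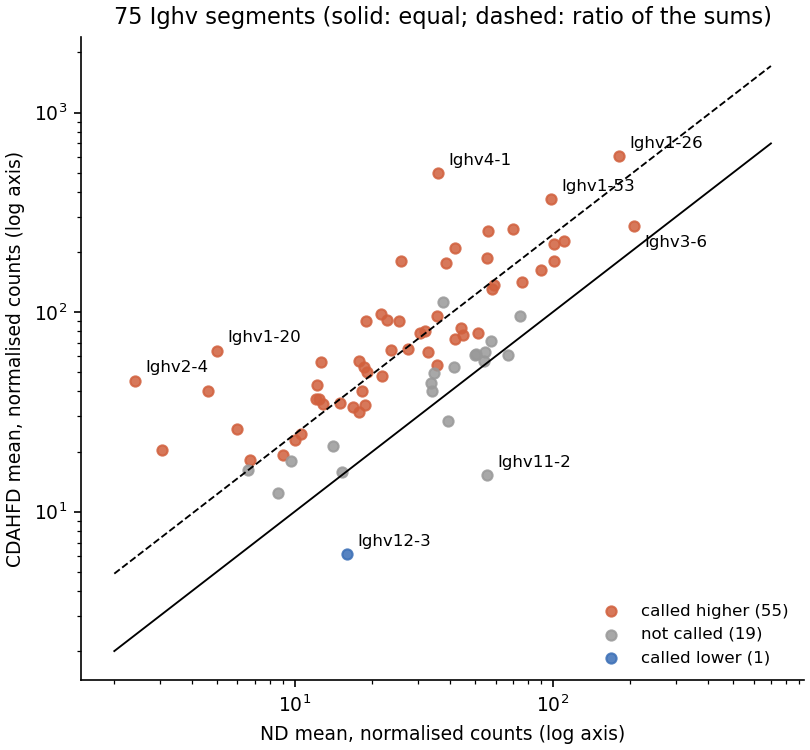
Mean normalised counts of the 75 segments in ND (x axis) and CDAHFD (y axis) libraries, both on log axes, with a solid line at equal values and a dashed line at the ratio of the sums, 2.44. Ighv4-1, Ighv2-4 and Ighv1-20 stand above the dashed line, Ighv3-6 lies between the lines, and Ighv11-2 and Ighv12-3 are below the solid line.

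The families did not gain alike. Here and for the families below, counts of members that rose or fell stand beside 24.6 and 22.5% of all genes tested. Ighv1, with 38 members the largest family, took 51.2, 51.01 and 51.3% of the summed counts in ND libraries and 58.05, 56.02 and 56.3% in CDAHFD libraries. Its share was higher without overlap, and 32 of 38 members rose while all 38 had a positive log2 fold change. Ighv4 has Ighv4-1 as its 1 member here. It took 1.26, 1.18 and 1.25% of the sum in ND and 6.43, 7.26 and 7.18% in CDAHFD libraries, with means of 1.23 ± 0.0440 and 6.96 ± 0.459%. The difference between the diets was 5.73 percentage points for this single segment and 5.66 for the whole Ighv1 family.

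In 4 families the diets overlapped in share. Ighv5 held 8.77 ± 0.502% of the sum in ND and 9.09 ± 0.353% in CDAHFD libraries, and 5 of 7 of its members rose. Ighv6 held 3.91 ± 0.446 and 4.44 ± 0.273%, with 2 of 2 rising, and Ighv2 5.28 ± 0.375 and 5.03 ± 0.143%, with 6 of 7 rising. Ighv13, which has Ighv13-2 as its 1 member, was at 0.510 ± 0.210 and 0.484 ± 0.0660%, and that member rose 2.34-fold.

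Other families took smaller shares in CDAHFD libraries, most of them with higher counts. The share of Ighv3 was 9.33, 7.39 and 7.73% in ND and 4.52, 4.17 and 4.98% in CDAHFD libraries, without overlap, while its summed counts were 1.37-fold higher. Ighv14 stood at 3.97 ± 0.536 and 2.51 ± 0.215%, with 1 of 4 members rising, and Ighv10 at 4.05 ± 0.371 and 2.50 ± 0.141%, with 1 of 2. Ighv8 was at 3.05 ± 0.360 and 2.45 ± 0.103% and Ighv9 at 4.16 ± 0.509 and 3.48 ± 0.471%, each with 2 of 3 members rising. These shares were lower without overlap, although by little in Ighv8 and Ighv9. Of the 4 members of Ighv7, Ighv11 and Ighv12, 3 did not pass the test and Ighv12-3 fell. Ighv7 went from 3.32 ± 0.963 to 1.40 ± 0.186% of the sum, with 97.1 ± 27.3 and 100.04 ± 9.77 summed normalised counts. Ighv11 went from 1.90 ± 0.336 to 0.212 ± 0.152% and Ighv12 from 0.545 ± 0.176 to 0.0879 ± 0.0689%, and these 3 families too did not overlap in share.

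**Figure D2:**
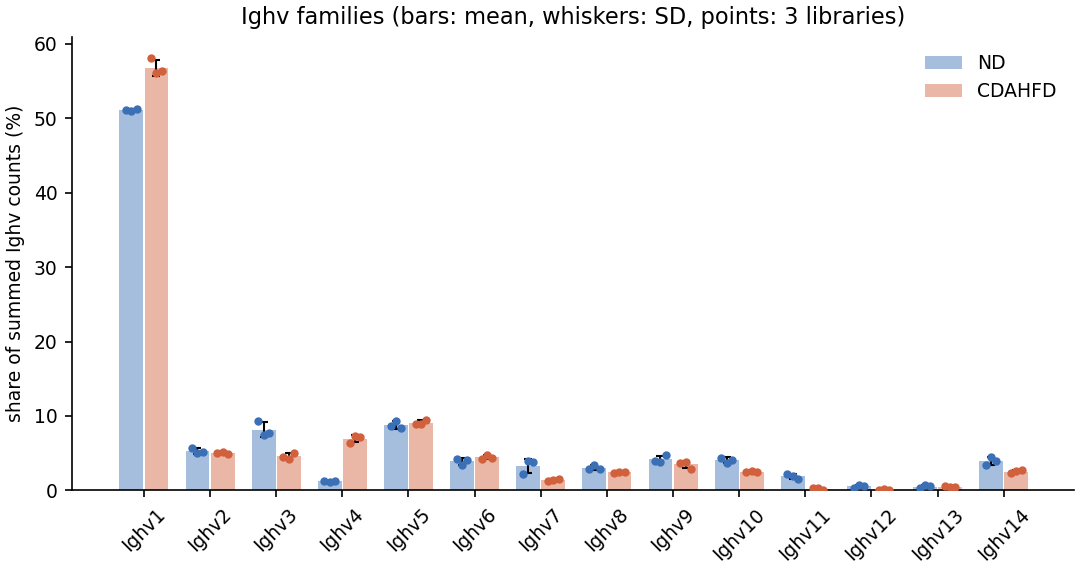
Share of the summed Ighv counts (percent) held by each of the 14 families, with bars for the mean of 3 libraries, whiskers for the SD and points for the libraries. Ighv1 and Ighv4 are higher and Ighv3, Ighv7, Ighv10, Ighv11 and Ighv14 lower in CDAHFD libraries, while Ighv2, Ighv5, Ighv6 and Ighv13 overlap.

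Counts were spread over the segments somewhat less evenly in CDAHFD libraries. Pielou evenness is the Shannon entropy of the shares divided by its maximum, so that 1 means equal shares. It was 0.910, 0.926 and 0.918 in ND libraries and 0.901, 0.905 and 0.898 in CDAHFD libraries. The diets did not overlap, but the lowest ND library (replicate 1) and the highest CDAHFD library (replicate 2) lay close together. The effective number of segments, taken as the inverse Simpson index, was 37.1, 42.7 and 39.8 in ND and 34.5, 34.6 and 32.9 in CDAHFD libraries, with means of 39.9 ± 2.77 and 33.98 ± 0.928. The 10 most abundant members of each library together took 40.8, 35.5 and 38.1% of the sum in ND and 43.9, 42.6 and 44.2% in CDAHFD libraries. Much of the difference in evenness sat in single segments: it was -0.0164 with all members, -0.00970 without Ighv1-26, and -0.00777 without Ighv4-1, an alternative chosen after its values were seen. Over families rather than segments, evenness was 0.688, 0.700 and 0.697 in ND and 0.614, 0.636 and 0.626 in CDAHFD libraries, again without overlap. Because the ND libraries had fewer Ighv reads, the inverse Simpson index was also computed without its sampling bias, and was 40.4 ± 2.84 in ND and 34.1 ± 0.936 in CDAHFD libraries.

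**Figure D3:**
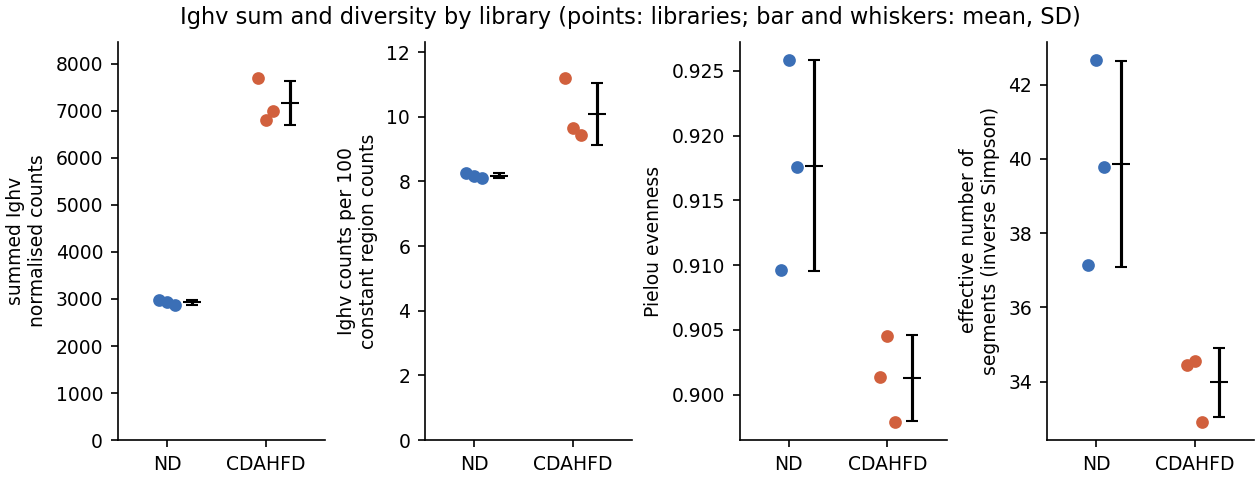
From left to right, summed Ighv normalised counts, Ighv counts per 100 constant region counts, Pielou evenness and effective number of segments by library, with points for libraries and a bar with whiskers for the mean and SD. The CDAHFD libraries lie above the ND libraries in the 2 panels on the left and below them in the 2 on the right, where the axes do not start at 0.

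Libraries of 1 diet used the segments more alike than libraries of different diets. A chi-square of the members' reads between 2 libraries, divided by its degrees of freedom, is about 1 where they differ by read sampling alone. It was 1.81 to 2.35 within ND, 2.18 to 2.44 within CDAHFD and 10.5 to 12.3 between diets. For a given difference in shares this value grows with the reads of the pair, so the ranges are not on a like scale. Pairs across diets had fewer Ighv reads than CDAHFD pairs and still had the higher values. Pairs of ND libraries shared 7 to 9 of their 10 most abundant members, pairs of CDAHFD libraries 8, and pairs across diets 4 to 7. The median coefficient of variation of a member was 22.3% in ND and 16.3% in CDAHFD libraries, beside 5.93 and 6.51% over all genes tested. Low counts vary more by read sampling alone, and ND libraries had fewer Ighv reads. A mean of at least 50 was reached by 36 of 75 members and by 12292 of 15819 genes. These values therefore do not show that V segments vary more than other genes of like counts.

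Among the most abundant segments, Ighv3-6 had the most counts in ND libraries. It was at 236, 188 and 193 normalised counts in ND and at 285, 239.6 and 286 in CDAHFD libraries. The lowest CDAHFD value was just above the highest ND value, and the segment rose by little (log2 fold change 0.40, SE 0.11, adjusted p by limma 0.00436). Its share of the sum was 7.01 ± 0.812% in ND and 3.77 ± 0.289% in CDAHFD libraries.

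Ighv1-26 was next in ND libraries and first in CDAHFD libraries. It was at 181, 172 and 188 normalised counts in ND and at 649, 572 and 594 in CDAHFD libraries. The diets were far apart, with a log2 fold change of 1.74 (SE 0.09, adjusted p by limma 9.36e-16). Its share grew from 6.16 ± 0.334 to 8.45 ± 0.0540%. Its near copy Ighv1-18, added once its value was known, rose from 41.8 ± 6.19 to 208 ± 42.9 normalised counts.

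Other Ighv1 segments were also abundant in CDAHFD libraries. Ighv1-53 rose 3.71-fold, from 98.8 ± 25.4 to 367 ± 48.3 normalised counts, and Ighv1-81 4.57-fold, from 55.9 ± 10.4 to 256 ± 15.2. Ighv1-55 and Ighv1-64 rose 2.05-fold and 2.17-fold, less than the sum, and their mean shares were 3.76 and 3.15% for Ighv1-55 and 3.45 and 3.05% for Ighv1-64 in ND and CDAHFD libraries. Ighv1-9, Ighv9-3 and Ighv6-3, each among the 8 most abundant in ND libraries, rose 1.81-fold, 1.80-fold and 1.85-fold. Ighv5-17, the most abundant Ighv5 segment in both diets, rose 3.72-fold, from 69.96 ± 2.94 to 260.4 ± 32.9 normalised counts.

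Ighv4-1 changed most among the abundant segments. It was at 37.5, 34.7 and 35.8 normalised counts in ND libraries and at 495, 494 and 501 in CDAHFD libraries. Both triplets were tight and far apart, a 13.8-fold rise (log2 fold change 3.75, SE 0.13, adjusted p by limma 5.94e-20). Per kb of annotated exon, its mean level in CDAHFD libraries was 1200.2 normalised counts, behind Ighv1-26 (1724) and ahead of Ighv1-53 (1045) and Ighv3-6 (772). In ND libraries the level per kb was 87.00 for Ighv4-1, 514 for Ighv1-26 and 587 for Ighv3-6.

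The other segments with the largest log2 rises were rare in ND libraries, apart from Ighv1-72. Ighv2-4 had 2, 5 and 0 reads in ND and 56, 37 and 43 in CDAHFD libraries, a log2 fold change of 4.09 (SE 0.52). Its exon was 98.03% identical to that of Ighv2-2, which stood at 67.2 ± 17.96 and 61.2 ± 5.98 normalised counts (adjusted p by limma 0.700) and is named after its value was seen. Ighv1-20 had 8, 1 and 6 reads in ND and 70, 73 and 51 in CDAHFD libraries (log2 fold change 3.68, SE 0.45), and was 98.7% identical to Ighv1-37. Of the 50-base windows, 47.1% in Ighv2-4 and 56.2% in Ighv1-20 were unique among V exons, so reads from the rest could be split between copies. Ighv8-5 rose from 4.60 ± 1.79 to 40.1 ± 2.29 and Ighv1-84 from 3.05 ± 2.81 to 20.4 ± 1.38 normalised counts.

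Ighv1-72 is the segment that C57BL/6 mice use for most antibodies against the hapten NP. It was at 17.7, 26.5 and 33.00 normalised counts in ND and at 205, 153 and 181 in CDAHFD libraries. The diets did not overlap, and the segment rose 6.98-fold (log2 fold change 2.79, SE 0.20, adjusted p by limma 4.46e-12). It was 99.02% identical to Ighv1-62-3, and 0 of its 256 windows of 50 bases were unique among V exons. Such windows alone cannot assign this value to 1 segment, and longer stretches were not compared. In the deposited counts, Ighv1-62-3 had 0, 0 and 2 reads in ND and 2, 0 and 4 in CDAHFD libraries.

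**Figure D4:**
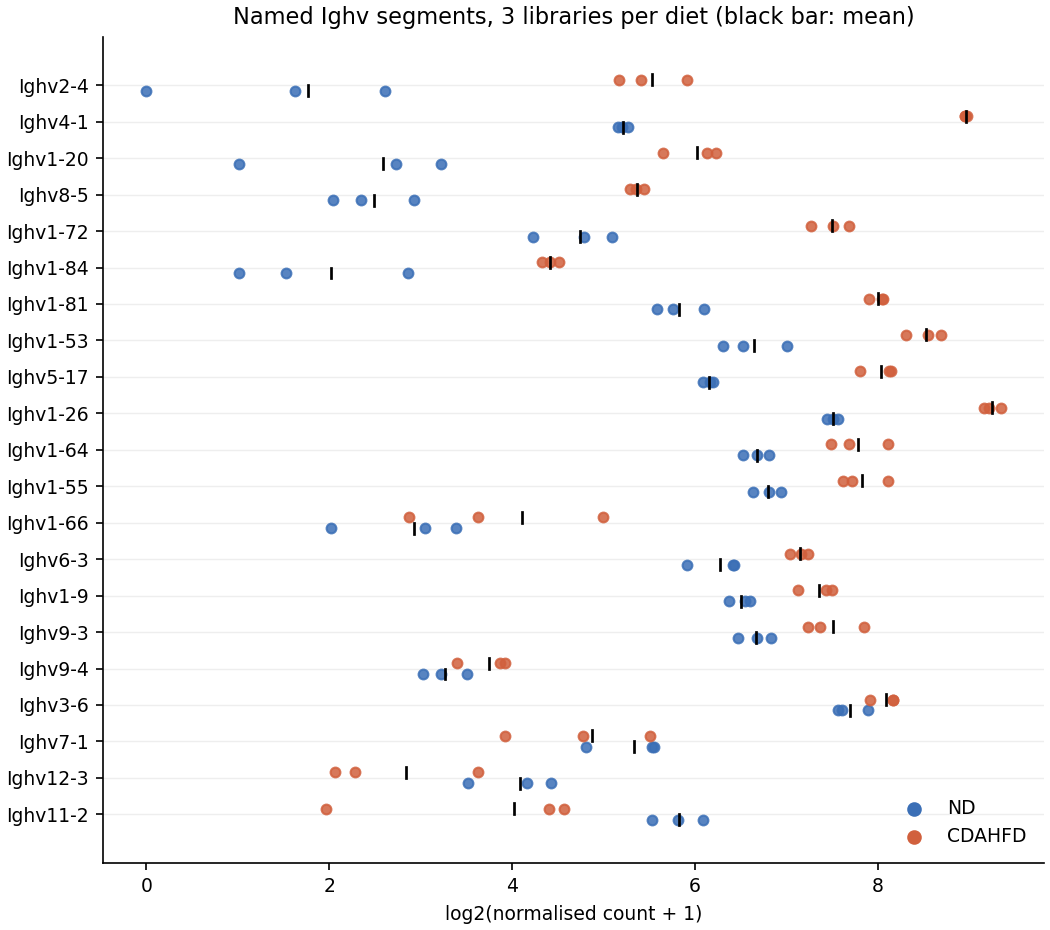
Values of the named members on the log2(normalised count + 1) scale, blue for the 3 ND and orange for the 3 CDAHFD libraries, with black bars at the means, in the order of their log2 fold change. The triplets of Ighv4-1 are narrow and far apart, the ND values of Ighv2-4 and Ighv1-20 are scattered, and Ighv7-1, Ighv12-3 and Ighv11-2 at the bottom have lower means in CDAHFD libraries.

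The 3 segments chosen as known from B-1 cells had lower means in CDAHFD libraries, where 71 of the 75 members had a positive log2 fold change. Ighv11-2 was at 66.7, 55.1 and 45.3 normalised counts in ND libraries and at 20.1, 22.7 and 2.90 in CDAHFD libraries. The diets did not overlap, and CDAHFD replicate 3 was far below the other two. Its log2 fold change of -2.16 (SE 0.76) missed the threshold by limma (adjusted p = 0.0670). It passed by edgeR (log2 fold change -1.86, adjusted p = 6.45e-04) and by DESeq2 (adjusted p = 0.0222). It also passed by limma with a pseudocount of 5 (adjusted p = 0.0105), without CDAHFD replicate 3 (log2 fold change -1.32, adjusted p = 1.78e-04) and without CDAHFD replicate 2 (adjusted p = 0.0277). Counting the replicate block as well, the segment passed in 6 of 15 alternatives and stayed uncalled in 9.

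Ighv12-3 was at 10.4, 20.4 and 16.97 normalised counts in ND and at 3.17, 11.4 and 3.87 in CDAHFD libraries. It was the 1 member called lower by limma (log2 fold change -1.38, SE 0.48, adjusted p = 0.0199), although CDAHFD replicate 2 reached above ND replicate 1. The call rested on 10, 20 and 18 reads in ND and 3, 12 and 4 in CDAHFD libraries. It was lost by DESeq2 (adjusted p = 0.0643), by limma without trend and robust estimation (adjusted p = 0.0721) and by limma without CDAHFD replicate 1 (adjusted p = 0.0681) or replicate 3 (adjusted p = 0.0636). Without ND replicate 2 or 3 its mean was under 10, and it was not tested.

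Ighv7-1, of the S107 family and known for natural antibodies against phosphorylcholine, was at 27.1, 45.9 and 45.3 normalised counts in ND and at 26.4, 14.2 and 44.5 in CDAHFD libraries. The values overlapped, and the log2 fold change of -0.56 (SE 0.33) did not pass the test (adjusted p by limma 0.181). Without CDAHFD replicate 3 it was -0.95 and passed (adjusted p by limma 0.0201). Its share of the sum was 1.35 ± 0.378% in ND and 0.397 ± 0.219% in CDAHFD libraries.

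Just inside the minimum of 10 were Ighv9-4, Ighv12-3 and Ighv1-66, with means over the 6 libraries of 10.5, 11.04 and 11.4 normalised counts. Just outside were Ighv2-6-8, Ighv1-34 and Ighv9-2, with 9.83, 9.46 and 9.36. Neither Ighv9-4 nor Ighv1-66 passed the test, although Ighv1-66 did without CDAHFD replicate 1 (adjusted p by limma 0.0195). The 43 Ighv rows under the minimum held 2.70% of all Ighv counts.

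Members called higher were found along the whole locus. Of all genes tested, 24.6% rose and 22.5% fell. Of the 25 members nearest to Ighj1, 15 rose, with a median log2 fold change of 0.89. Of the middle 25, 18 rose and 1 fell (median 0.90), and of the farthest 25, mostly Ighv1 segments, 22 rose (median 1.34). The farthest group held 33.4 ± 1.04% of the sum in ND and 37.6 ± 0.448% in CDAHFD libraries, without overlap. The middle group held 37.8 ± 1.83 and 33.6 ± 0.122%, also without overlap, and the nearest 28.9 ± 0.869 and 28.7 ± 0.549%, where the diets overlapped.

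**Figure D5:**
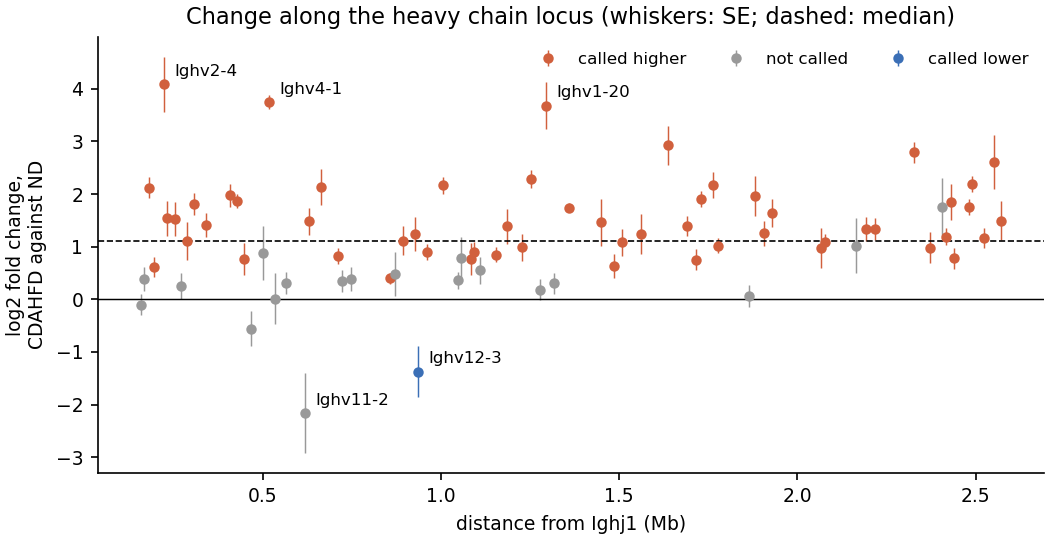
Log2 fold change of CDAHFD against ND with its SE for each of the 75 members by distance from Ighj1 in Mb, with the median of 1.11 dashed. Members called higher appear at all distances, and Ighv4-1 and Ighv11-2 lie close to each other with opposite signs.

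The constant region genes, which were counted separately from the V segments, moved by class. Whether V and constant region counts came from the same transcripts was not tested. Of 8 genes 7 were tested, of which 5 rose and 1 fell, beside 24.6 and 22.5% of all genes tested (median log2 fold change 3.25). Igha, of the class secreted at mucosal surfaces, rose 28.03-fold, and among the IgG classes Ighg1 rose 17.4-fold, Ighg2c 15.1-fold, Ighg2b 9.53-fold and Ighg3 3.94-fold. Ighm, of the class that naive B cells carry, stood at 29256 ± 373 and 30001 ± 1337 normalised counts (adjusted p by limma 0.479), and Ighd, also of naive B cells, fell from 4660.3 ± 200.3 to 3196 ± 56.8. Ighe, of the class of allergic responses, was under the minimum, with 0, 0 and 1 reads in ND and 14, 30 and 6 in CDAHFD libraries. For every 100 constant region counts there were 8.25, 8.18 and 8.11 Ighv counts in ND and 11.2, 9.66 and 9.44 in CDAHFD libraries. This ratio was 1.23-fold higher in CDAHFD libraries, without overlap. Against Ighm and Ighd alone it went from 8.64 ± 0.0901 to 21.6 ± 1.98 Ighv counts per 100.

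Genes of antibody-secreting cells mostly rose beside the V segments. Of 15 tested genes of plasma cell secretion, 9 rose and 2, Irf4 and Sec11c, fell (median log2 fold change 0.58). Of all genes tested, 24.6% rose and 22.5% fell. Jchain, which links IgA and IgM into polymers, rose from 1095 ± 70.8 to 7615 ± 476 normalised counts. Prdm1, which drives plasma cell differentiation, rose from 118 ± 15.5 to 531 ± 19.9, and Sdc1, the plasma cell surface protein CD138, from 59.1 ± 13.1 to 142 ± 11.3. Mzb1, a chaperone of antibody assembly, stood at 369 ± 29.9 and 398 ± 19.6 (adjusted p by limma 0.295). The shorter list of plasma cell markers holds only genes of the secretion list, so it adds no separate evidence. It summed to 3789 to 3970 normalised counts in ND and 11296 to 12198 in CDAHFD libraries. Of its 7 tested genes, 5 rose and 1, Irf4, fell, and most of the rise in its sum was Jchain. B cell markers went the other way: 14 of 16 fell and 2 rose, and their sum was 35534 to 37020 in ND and 28907 to 30368 in CDAHFD libraries. The 2 that rose were Cr2, the complement receptor CD21 (log2 fold change 0.35), and Bank1, an adaptor of B cell receptor signalling (0.65). Pax5, which keeps B cell identity, fell from 3447 ± 121 to 2358 ± 12.03 normalised counts.

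Of 16 tested genes of antibody gene recombination and class switching, 2 rose and 8 fell, beside 24.6 and 22.5% of all genes tested (median log2 fold change -0.15). Rag1, of the recombinase that joins V, D and J segments, fell from 25.5 ± 3.75 to 9.44 ± 4.13 normalised counts.

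The libraries carried markers of the labelled cell type beside those of others. The counts below stand beside 24.6% of all genes tested that rose and 22.5% that fell. The 12 CD8 T cell markers summed to 169564 to 174995 normalised counts in ND and 139791 to 145389 in CDAHFD libraries, and 10 of them fell. Red pulp macrophage markers summed to 17624 to 19389 and 149954 to 166632, with 12 of 12 rising. Erythroid markers summed to 870 to 906 and 8901 to 9203, with 7 of 7 rising, and neutrophil markers to 2526 to 2573 and 6425 to 7437, with 6 of 8 rising. No marker of these lists was at 0 in all 6 libraries, and the part of these cells in the V segment values was not tested.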

How the data were processed

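The authors deposited signal values, in which the reads of each gene are scaled by 1 factor per library: dividing each column by its smallest value above 0 gave whole numbers (100% within 0.001), taken as reads. The build was mm10, per the submitters' processing notes. Aligner, counter, annotation and strand setting are not given in the sources used here. Per the labels' protocols a whole-RNA or an mRNA kit was used, without saying for which library. The group labelled CDAHFD is spelled CDHFD in the column names.

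Gene symbols matched 26147 of 26181 IDs. Positions and V exons came from GENCODE mouse release M21, with 185 Ighv genes, of which those outside the table were not analysed here. V exons were aligned with Biopython 1.88. limma 3.58.1 (trend, robust; R 4.3.3) was fitted to log2(normalised count + 1) with diet as the term, over the 15819 genes whose mean reached 10. P-values were adjusted by Benjamini-Hochberg over all of these, and "rose" and "fell" stand for an adjusted p under 0.05. Sums, shares and evenness have no test. The fit was tested on simulated data. edgeR 4.0.16 and DESeq2 1.42.0 were run on the whole reads.

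Named were the 8 highest members of each diet, the 6 largest rises and falls among called members whose diets did not overlap (no fall met this), 3 segments known from B-1 cells, the 3 rows on each side of the minimum and the constant regions. The members, lists and rules were chosen with earlier results of these data known. Alternatives were other pseudocounts (0.5 and 5), filters (none, or a mean of at least 50), scalings, tests, a replicate block, counts per exon length, a dominant segment left out and each library left out.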

Additional observations from a re-analysis of the deposited data

How the results depend on the processing

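The number of members called higher by limma was 55, and 51 to 54 as each library was left out. It moved by over 1.5 times only at a mean of at least 50, which left 36 members to test, with 29 higher. The 1 member called lower was Ighv12-3. The number called lower was 2 with a pseudocount of 5, with edgeR and with the replicate block. By limma without trend and robust estimation it was 0 (2 at an unadjusted p under 0.05). At a mean of at least 50 it was also 0 (0 unadjusted), but Ighv12-3 and Ighv11-2 were under that mean and not tested. The number ran from 0 to 2 as each library was left out. It was 0 without ND replicate 2 or 3 or CDAHFD replicate 1, and 2 without CDAHFD replicate 2 or 3. Evenness differed by -0.0164, by -0.00970 without Ighv1-26 and by -0.00777 without Ighv4-1. The effective number differed by -5.88, by -3.78 without Ighv1-26 and by -3.90 without Ighv4-1. The share of Ighv4 differed by 5.73 percentage points, by 5.11 with counts per exon length and by 6.29 without Ighv1-26. Ighv counts per 100 constant region counts differed by 1.92, and by 12.98 against Ighm and Ighd only. The cause was not tested. Of 320 values of named members under the alternatives, 308 kept their side of the threshold, 4 lost a call (all Ighv12-3), 8 gained one and 0 changed sign while called. Low reads limit what can be seen for members near the minimum.

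Same-numbered libraries of the 2 diets did not clearly deviate together (correlations 0.04, -0.05 and 0.06), and 3 of 6 libraries correlated best with their own number. The main fit therefore did not pair them, but so few pairs cannot exclude shared handling. With the replicate block, 56 members were called higher (24.1% of all genes) and 2 lower (21.8%), the second being Ighv11-2 (adjusted p by limma 2.49e-05).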

Other observations

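The J and D segments of the same locus, a list chosen after their values were seen, had lower counts in CDAHFD libraries. All 4 J segments fell by limma, beside 22.5% of all genes. Ighj1 was at 61.5, 58.2 and 89.6 normalised counts in ND and at 17.97, 18.9 and 21.3 in CDAHFD libraries, without overlap (log2 fold change -1.77, SE 0.24). Ighj2 fell from 53.7 ± 16.7 to 21.2 ± 6.33, Ighj3 from 71.4 ± 12.2 to 44.9 ± 9.98 and Ighj4 from 133 ± 20.9 to 65.4 ± 12.8 normalised counts. The 15 D segment rows were all under the minimum and together came to 51.02 to 64.1 normalised counts in ND and 20.8 to 27.1 in CDAHFD libraries. In a joined gene, J and V segments are part of the same exon, and here the J segments were lower where the summed V segments were higher. The J segments together came to 309 to 357 normalised counts in ND and 121 to 173 in CDAHFD libraries, far below the V sums. Which transcripts the J and D counts came from was not tested.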
